A study of Mus musculus with 4 samples.

Results

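The Zfp genes are the mouse genes named for a zinc finger protein by number, and 252 of the 360 Zfp symbols among the 24346 genes listed were expressed in cultured hair follicle stem cells (HFSCs). A member carried a symbol made of Zfp and a number, with or without a closing letter, and its FPKM was 1 or more in 2 or more of the 4 libraries. FPKM scales the fragments of a gene by its exon length and by the fragments mapped in the library, so it is a level per length, and a gene is called on here at an FPKM of at least 1. Of the 108 symbols that did not pass, 32 were at 0 in all 4 libraries and 76 were above 0. Nearest to the limit, the second highest FPKM was 1.07 for Zfp69 and 1.09 for Zfp820 just inside it, and 0.985 for Zfp775 and 0.955 for Zfp14 just outside it.

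The HFSCs were sorted for CD49f and CD34 from the dorsal skin epithelium of 4-week-old C3H/HeN mice and kept in M-CnT, a commercial serum-free medium, with 1 passage a week. RNA was sequenced after 10 passages (10p-HFSCs) and after 48 passages (48p-HFSCs), with 2 libraries in each group and no treatment in either, to ask what long-term culture changes. Nothing in the labels says that the libraries of a group came from separate mice or cultures, so p-values measure only the spread between these 4 libraries, which may be technical.

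C2H2 zinc fingers are short folds held by a zinc ion that read DNA, and a run of them in one protein reads a longer site. Many Zfp proteins also carry a KRAB domain, which recruits Trim28 and through it the histone methyltransferase Setdb1, and these KRAB zinc finger proteins are best known for silencing endogenous retroviruses and for guarding imprinted loci. Their genes arose by repeated duplication and lie in clusters, and most are transcribed at low levels in most tissues. Other Zfp genes encode activators, ubiquitin ligases, RNA-binding proteins or splicing factors, and Zfp750 is a regulator of epidermal differentiation.

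By a profile search of their translated coding sequences, 141 members carried a KRAB domain, 4 a SCAN domain (a domain for pairing between such proteins) without KRAB, and 102 C2H2 fingers with neither. The remaining 5 had neither domain and no match to the C2H2 pattern, among them Zfp36, whose fingers are of the CCCH type. A lack of C2H2 matches was not confined to these, as KRAB members ranged from 0 to 30 fingers. KRAB members had a median of 12 fingers. The members with C2H2 fingers but neither KRAB nor SCAN, called C2H2 fingers alone below, had 7.5. Other domains, such as BTB, were not classed. Of the Zfp symbols listed, 67.1% of the 210 with KRAB and 77.9% of the 131 with C2H2 fingers alone were members. Near-identical copies can share reads, and 39 members had at least 5% of their windows of read length in the transcripts of another gene.

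The sequence upstream of the RefSeq start site is shown for 4 members that were on at 10 passages and off at 48, and for Zfp296, which was higher at 48 passages. Each run is the 250 bases before the RefSeq start, 5' to 3' on the gene's strand, from the GRCm38.p6 table, with CpG pairs in capitals. Where a gene had several RefSeq starts, the most upstream was used. Gene positions given below come from GENCODE, whose starts can differ. A window can therefore lie inside the GENCODE span of its gene, as that of Zfp629 does. Zfp764 (chr7:127406823-127407072, minus strand) and Zfp747 (chr7:127376051-127376300, minus strand) are neighbouring copies, and 219 of 243 aligned bases (90.1%) were identical. The others are Zfp941 (chr7:140822179-140822428, minus strand), Zfp629 (chr7:127615273-127615522, minus strand) and Zfp296 (chr7:19577037-19577286, plus strand).
Zfp764: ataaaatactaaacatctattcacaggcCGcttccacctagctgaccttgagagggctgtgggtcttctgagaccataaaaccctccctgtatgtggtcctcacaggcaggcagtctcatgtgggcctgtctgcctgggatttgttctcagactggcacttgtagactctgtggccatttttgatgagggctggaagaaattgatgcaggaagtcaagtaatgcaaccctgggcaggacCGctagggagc
Zfp747: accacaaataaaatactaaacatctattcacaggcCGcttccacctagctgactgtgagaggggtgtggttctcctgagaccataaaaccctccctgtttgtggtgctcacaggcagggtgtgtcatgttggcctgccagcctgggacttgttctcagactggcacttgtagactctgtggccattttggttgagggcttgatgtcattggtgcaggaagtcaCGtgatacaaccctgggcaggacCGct
Zfp941: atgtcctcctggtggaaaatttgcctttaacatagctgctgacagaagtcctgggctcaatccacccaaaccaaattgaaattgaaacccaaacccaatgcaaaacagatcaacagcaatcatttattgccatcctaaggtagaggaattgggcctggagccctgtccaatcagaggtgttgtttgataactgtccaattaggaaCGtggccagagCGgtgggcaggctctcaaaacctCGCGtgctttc
Zfp629: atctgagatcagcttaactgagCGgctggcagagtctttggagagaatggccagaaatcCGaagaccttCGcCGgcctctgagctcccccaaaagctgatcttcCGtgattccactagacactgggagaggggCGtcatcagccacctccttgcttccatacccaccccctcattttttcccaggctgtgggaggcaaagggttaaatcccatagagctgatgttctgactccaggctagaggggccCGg
Zfp296: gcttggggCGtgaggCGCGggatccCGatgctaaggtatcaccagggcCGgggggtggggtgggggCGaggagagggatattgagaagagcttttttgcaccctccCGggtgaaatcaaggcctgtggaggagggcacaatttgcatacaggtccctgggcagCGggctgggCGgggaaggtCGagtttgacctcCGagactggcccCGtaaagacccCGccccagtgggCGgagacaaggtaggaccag

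These windows held 2 CpG pairs for Zfp764, 3 for Zfp747, 4 for Zfp941, 7 for Zfp629 and 14 for Zfp296. Among members with an entry in the table, the median was 12 CpG pairs for the 124 on in all 4 libraries and 7 for 24 of the 26 switched off, against 16 for the 8911 genes tested that were matched and 6 for all 27025 RefSeq promoters. The median was 9 in 125 KRAB members and 16 in 80 members with C2H2 fingers alone. Each motif below was searched on both strands by its letters alone, and none is part of another. The GC box GGGCGG was found in 55.6% of windows of members on in all 4 libraries, 16.7% of those switched off, 60.6% of the genes tested and 33.0% of all RefSeq promoters. Of the 26 switched off members 21 carried KRAB, and the share was 32% in KRAB members and 58.8% in members with C2H2 fingers alone. The CCAAT box was found in 51.2% of windows of the members, CCGGAAG, the core of ETS factor sites, in 16.1%, and the TATA box TATAAA in 5.21%, against 38.1%, 15.2% and 6.13% of the genes tested and 34.5%, 7.07% and 13.0% of all RefSeq promoters. The shares for the ETS core and the TATA box were thus near those of the genes tested. These shares are a description of letters in a window and carry no test.

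Before the values, 48p-HFSC replicate 2 stood apart from the other libraries. Its FPKM values summed to 1414953, against 581516 to 719012 in the others, and the spacing of its low values put its depth at 46.7% of that of 10p-HFSC replicate 1, against 71.6% and 82.9% for the others. Between the 48p-HFSC replicates, the median log2(FPKM + 1) difference ran from 0.55 in the shortest of 5 equal bins of transcript length to -0.30 in the longest, and from -0.15 in the lowest of 5 bins of GC content to 0.21 in the highest. Trends of the same direction and smaller range stood between the 10p-HFSC replicates, from 0.26 to -0.25 with length and from -0.12 to 0.17 with GC content, so the direction was not particular to 48p-HFSC replicate 2. Members had a median transcript length of 3527.5 bases and a GC content of 44.5%, against 3013 bases and 50.0% over all genes tested. Basal keratinocyte markers were on in every library (Krt5 at 1473 to 8156), and hair follicle stem cell markers were mixed. Sox9 was at 45.6 and 44.2 in 10p-HFSCs and 20.2 and 8.31 at 48 passages, and Krt15 at 136.1 and 82.6 and then 424.8 and 18.8, while Cd34, Lhx2 and Lgr5 were at most 0.234, 0.0241 and 0.0303. The study's own qRT-PCR reported increased Sox9 and Lhx2 and maintained Cd34 in 48p-HFSCs, most of which it found CD34-immunopositive. The FPKM values differ from those reports, with Sox9 lower at 48 passages and Cd34 and Lhx2 near 0 throughout. The reason was not tested. Of 7 fibroblast markers only Col1a2 passed an FPKM of 1, at 59.3 to 67.6 in 10p-HFSCs and 0 in 48p-HFSCs. Among 5 leukocyte markers, Cd68 was at 6.81 to 7.30 and then 53.2 to 78.7, while Ptprc, Cd3e, Tyrobp and Itgam were at most 0.0711. Melanocyte markers summed to 0.486 to 0.640 and then 2.15 to 10.8, and endothelial ones to 2.26 to 2.38 and then 0.172 to 1.03. Their part in the results below was not tested.

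Most members were low. Their median FPKM was 4.26 and 3.94 in the 10p-HFSC libraries and 3.42 and 1.5 in the 48p-HFSC libraries, against 11.2 to 12.2 over all 11018 genes tested, and 157 members averaged under 5. In 48p-HFSC replicate 1 their median log2(FPKM + 1) difference from the 10p-HFSC mean was -0.28 (all genes -0.05), and 171 members (67.9%, against 53.1% of all genes) were below it. In replicate 2 the median was -0.93 (all genes -0.00143), and 209 (82.9%, against 50.1%) were below. The 48p-HFSC replicates were at least 2-fold apart for 136 members (54.0%, against 26.3% of all genes tested), and the 10p-HFSC replicates for 8 (3.17%, against 6.14%). In bulk RNA, fewer cells of a type and less RNA per cell cannot be told apart.

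**Figure D1:**
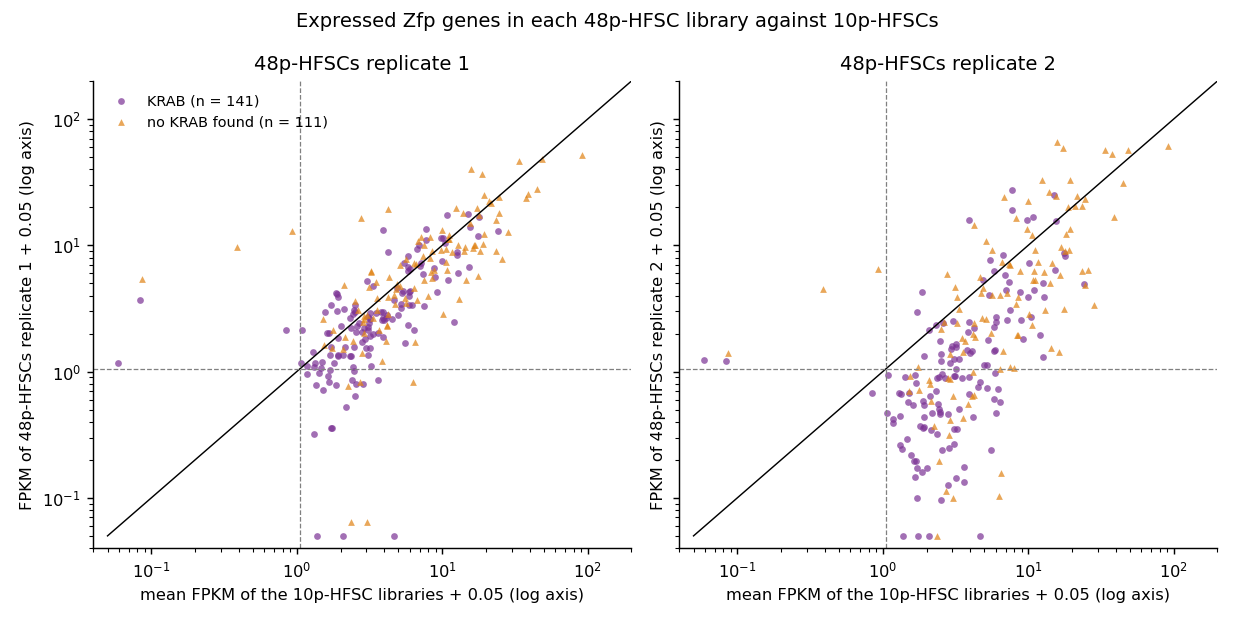
FPKM of each of the 252 members in 48p-HFSC replicate 1 (left) and replicate 2 (right) plotted over the average at 10 passages, on log axes with a small constant added so that values of 0 can be drawn, with 141 KRAB members as purple circles and 111 others as orange triangles. The solid line marks equal values and the dashed lines the limit for on, and more points lie below the solid line in replicate 2.

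By pattern, 149 members (59.1%) were on in all 4 libraries, against 83.6% of all genes at the same level rule. A further 68 members (27.0%) were on in every library but 48p-HFSC replicate 2, against 4.44% of all genes. No member was on in every library but 48p-HFSC replicate 1, a pattern of 35 genes in all. The members on at 10 passages and under the limit in both 48p-HFSC libraries, called switched off, numbered 26 (10.3%, against 4.04% of all genes). Only 4 (1.59%, against 5.59%) were switched on, and 5 had other combinations. These patterns define the groups of members and carry no test. The count of switched off members was 94 with 48p-HFSC replicate 1 left out and 26 with replicate 2 left out, and the count switched on was 7 and 9.

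The protein classes held these patterns in different shares. Of KRAB members, 64 of 141 (45.4%) were on in all 4 libraries, 50 (35.5%) in all but 48p-HFSC replicate 2, and 21 (14.9%) were switched off. Of the 111 members without KRAB, 85 (76.6%) were on in all 4, 18 (16.2%) in all but 48p-HFSC replicate 2, and 5 (4.50%) were switched off. The KRAB members were also lower from the start, with a median FPKM of 3.27 in 10p-HFSC replicate 1 against 7.12 for the members without KRAB, and lower in GC content, with a median of 41.5% against 50.8%. The part of level and GC content in this difference was not tested.

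The switched off members were mostly low at 10 passages, and 23 of 26 averaged an FPKM of at most 3. The highest was Zfp629 (chr7:127607031-127615797, 19 fingers), at 5.84 and 6.63 in 10p-HFSCs and 0.778 and 0.0531 at 48 passages. Zfp764 (chr7:127403668-127406822, KRAB, 9 fingers) was at 3.73 and 5.48 in 10p-HFSCs, and each library of 48p-HFSCs lists it at 0. Its copy Zfp747 (chr7:127372537-127376050, KRAB, 9 fingers) was at 3.63 and 3.55 and then 0.808 and 0.127. The copies may share reads, with 7.93% of the windows of Zfp764 and 11.6% of those of Zfp747 found in another gene, so the split between them is uncertain. Zfp280d (chr9:72274860-72363777) was at 3.28 and 2.71 at 10 passages and 0.0142 and 0.0504 at 48. The KRAB gene Zfp931, with 15.1% of its windows shared, was at 3.54 and 2.08 and then 0.748 and 0.199. Both 48p-HFSC libraries lay below both 10p-HFSC libraries for each of these, as the rule requires. Zfp697 was at 2.67 and 2.64 for the 10p-HFSC replicates, then 0.785 and 0.0633 for those of 48p-HFSCs. Zfp93 was at 2.37 and 2.62, then 0.749 and 0.190. Zfp111 was at 2.98 and 1.94, then 0.587 and 0.0453.

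For many of these members the change was a crossing of the limit rather than a loss. In 48p-HFSC replicate 1, 17 of the 26 were still at an FPKM of 0.5 to under 1. Only 5 were under 0.1 in both 48p-HFSC libraries, namely Zfp764, Zfp941 and Zfp964, each listed at 0 in both, and Zfp280d and Zfp395. Zfp941 was at 2.08 and 1.99 in 10p-HFSCs, and Zfp964 at 1.21 and 1.47. Zfp395 was at 2.31 and 2.29 in 10p-HFSCs and 0.0146 and 0 at 48 passages. Chromosome 7 held 9 of the 26, and it held 59 of the 252 members. Zfp941, Zfp964 and Zfp395 were chosen for naming after their values were seen.

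The switched on members were fewer, and Zfp422 (chr6:116624016-116628999), also known as Krox-26, was the highest. It was at 0.246 and 0.435 at 10 passages and 9.59 and 4.49 at 48. Zfp608, a relative of Zfp609, was at 0.0497 and 0.0231 and then 5.36 and 1.36. Zfp600 (chr4:146156824-146198755, KRAB, 17 fingers) was at 0.0494 and 0.0173 and then 3.64 and 1.17. It belongs to a family of near-identical genes, and 68.2% of its windows occur in another gene, so the source of its reads is uncertain. Zfp946 (chr17:22424222-22456689, KRAB, 11 fingers) was at 0.0180 and 0 and then 1.13 and 1.2. For the first 3, 48p-HFSC replicate 1 was well above replicate 2, and for Zfp946 the replicates were close.

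**Figure D2:**
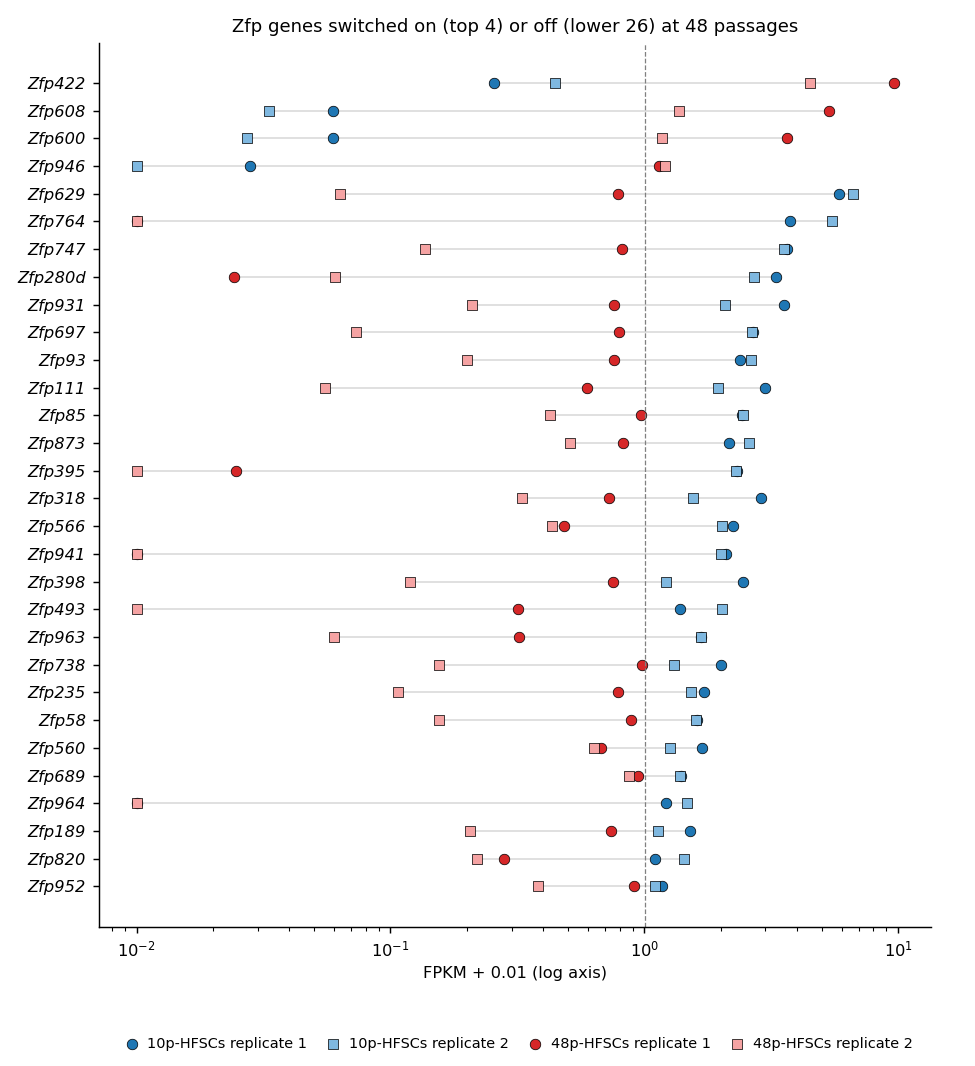
FPKM in each library, on a log axis with a small constant added, for the 4 members switched on and the 26 switched off, with 10p-HFSCs in blue, 48p-HFSCs in red, replicate 1 as circles and replicate 2 as squares. The dashed line is the limit for on, and 17 of the switched off members have 48p-HFSC replicate 1 between 0.5 and the limit.

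Zfp750 (chr11:121510978-121519333), which acts downstream of p63 in the terminal differentiation of the epidermis, came close to the same pattern. It was at 1.09 and 0.651 for the 10p-HFSC replicates, then 12.8 and 6.44 for those of 48p-HFSCs, so the groups did not overlap. Its mean was 11-fold higher, and its log2(FPKM + 1) difference was 2.45 (SE 0.377). With 1 library on at 10 passages, it met the level rule only with the 48p-HFSC libraries, so this difference is given as a description. Trp63, which encodes p63, was at 60.4 and 42.0 in 10p-HFSCs and 123.8 and 52.7 at 48 passages.

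Members on in all 4 libraries were not chosen by a difference between the groups, and were read from a limma fit over all 11018 genes tested, with a gene called at a Benjamini-Hochberg adjusted p under 0.05 and a log2(FPKM + 1) difference of at least 1. Of the 149, 3 (2.01%) were called higher in 48p-HFSCs and 10 (6.71%) lower. An unadjusted p under 0.05 was found for 45 of the 149. Its share was 37.4% over all 11018 genes tested, a wider set that also holds genes on in 1 group only. Among all 9209 genes on in all 4 libraries, 6.68% were called higher and 6.04% lower, so the share called lower was near that of all genes. The median difference of the 149 was -0.41, against -0.02 for all genes on in all 4 libraries. With 1 library of 48p-HFSCs at a time, the median was -0.11 for replicate 1 (all genes -0.05) and -0.65 for replicate 2 (all genes 0.03). The lower median therefore rested largely on replicate 2. After each library was corrected for transcript length and GC content, it was -0.32 (all genes -0.04). Both 48p-HFSC libraries lay below both 10p-HFSC libraries for 70 members (47.0%, against 32.3% of all genes on in all 4 libraries) and above for 24 (16.1%, against 30.0%). The count called lower was 43 without 48p-HFSC replicate 1, 7 without replicate 2 and 0 without either 10p-HFSC library, and the count called higher was 6, 4 and 0. Under TPM rescaling, which divides each library by its FPKM sum, no member was called higher and 3 were called lower.

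The KRAB members on in all 4 libraries had a median difference of -0.49, and -0.18 in 48p-HFSC replicate 1 alone, with 1 of 64 called higher and 5 lower. The members without KRAB had a median of -0.35, and -0.08 in replicate 1 alone, with 2 of 85 called higher and 5 lower. Replicate 2 of 48p-HFSCs lay below the 10p-HFSC mean for 50 of the KRAB members (78.1%) and 61 of the others (71.8%), against 48.9% of all genes. In replicate 1 these counts were 39 (60.9%) and 51 (60.0%), against 53.6%. The difference between the classes was not tested.

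**Figure D3:**
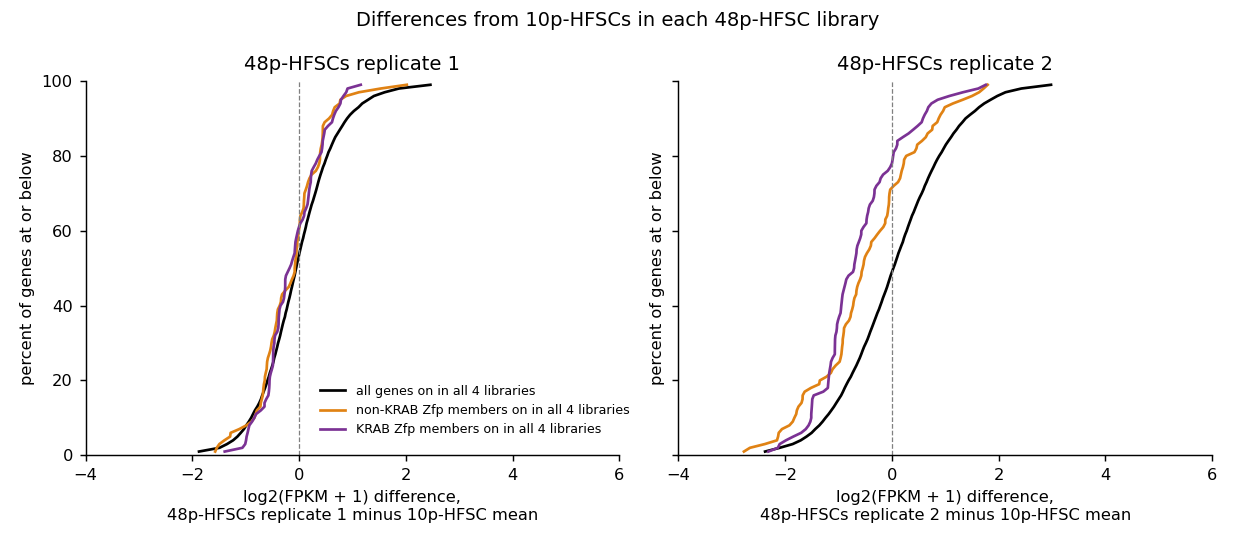
Cumulative share of genes, in percent, by the log2(FPKM + 1) difference of 48p-HFSC replicate 1 (left) and replicate 2 (right) from the 10p-HFSC mean, for all 9209 genes on in all 4 libraries (black), 64 KRAB members (purple) and 85 other members (orange). At a difference of 0 the curves stand at 53.6% for all genes, 60.9% for KRAB members and 60.0% for other members in replicate 1, and at 48.9%, 78.1% and 71.8% in replicate 2, where the medians are -0.71 for KRAB members, -0.55 for other members and 0.03 for all genes.

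The members called higher were Zfp296, Zfp53 and Zfp385a. Zfp296 (chr7:19577287-19580656, 6 fingers), a factor known from pluripotent cells, was at 4.16 and 4.22 at 10 passages and 19.5 and 14.4 at 48, a mean 4.04-fold higher. Its difference was 1.78 (SE 0.282, adjusted p = 0.011 by limma). The KRAB gene Zfp53 (chr17:21488998-21510473, 15 fingers) was at 4.18 and 3.49 and then 13.2 and 15.7. Its difference was 1.68 (SE 0.274, limma adjusted p = 0.012). Zfp385a (chr15:103313895-103340093), an RNA-binding protein that acts with p53, was at 14.8 and 16.5 and then 40.5 and 65.3. Its difference was 1.66 (SE 0.310, limma adjusted p = 0.018). The libraries of the groups did not overlap for any of them, and all 3 kept a positive difference under TPM rescaling (1.3, 1.2 and 1.1) but were not called there.

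The 10 members called lower were led by Zfp110 (chr7:12834761-12850577, KRAB), which encodes a protein that binds the p75 neurotrophin receptor. It was at 13.6 and 10.4 for the 10p-HFSC replicates, then 2.41 and 1.91 for those of 48p-HFSCs, a difference of -2.04 (SE 0.287, limma adjusted p = 0.00702). Zfp148 (chr16:33380836-33504363), which binds GC-rich promoters, was at 19.4 and 15.6 and then 5.71 and 3.11. Its difference was -1.81 (SE 0.340, limma adjusted p = 0.018). Its close relative Zfp281 was at 4.78 and 3.64 and then 2.83 and 0.599, and was not called (-1.07, limma adjusted p = 0.147). Zfp365 (chr10:67886103-67912662), linked to genome stability, was at 27.4 and 23.7 and then 7.68 and 6.35. Its difference was -1.73 (SE 0.263, limma adjusted p = 0.00912). Zfp110 and Zfp365 were also called lower under TPM rescaling.

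Zfp523 (chr17:28177129-28205886), a relative of Zfp143, was at 11.9 and 14 in 10p-HFSCs and 3.71 and 3.05 at 48 passages (-1.67). Zfp143 itself, which binds promoters of small nuclear RNA genes, was at 10.6 and 5.85 and then 11.5 and 16.5 (0.73, limma adjusted p = 0.201). So these relatives had differences of opposite sign, the first called and the second not. Zfp263 (chr16:3744093-3750790, SCAN) was at 11 and 9.10 and then 2.81 and 2.79 (-1.54). Zfp131 (chr13:119765187-119790889) was at 24.7 and 22.1 and then 8.95 and 6.25 (-1.52). These were called by limma with adjusted p of 0.012, 0.015 and 0.017 for Zfp523, Zfp263 and Zfp131. The KRAB gene Zfp930 was at 13.5 and 12.2 and then 5.93 and 3.86 (-1.26), and the KRAB gene Zfp655 at 16.5 and 14.1 and then 6.68 and 6.32 (-1.12). Their limma adjusted p was 0.036 and 0.034, and both calls were lost when 48p-HFSC replicate 2 was left out, with differences of -0.999 for Zfp930 and -1.08 for Zfp655 and limma adjusted p of 0.070 and 0.065. The call of Zfp655 was also lost after the correction for length and GC content (-0.96). The remaining members called lower, Zfp868 and Zfp869, lie beside Zfp930 on chromosome 8.

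**Figure D4:**
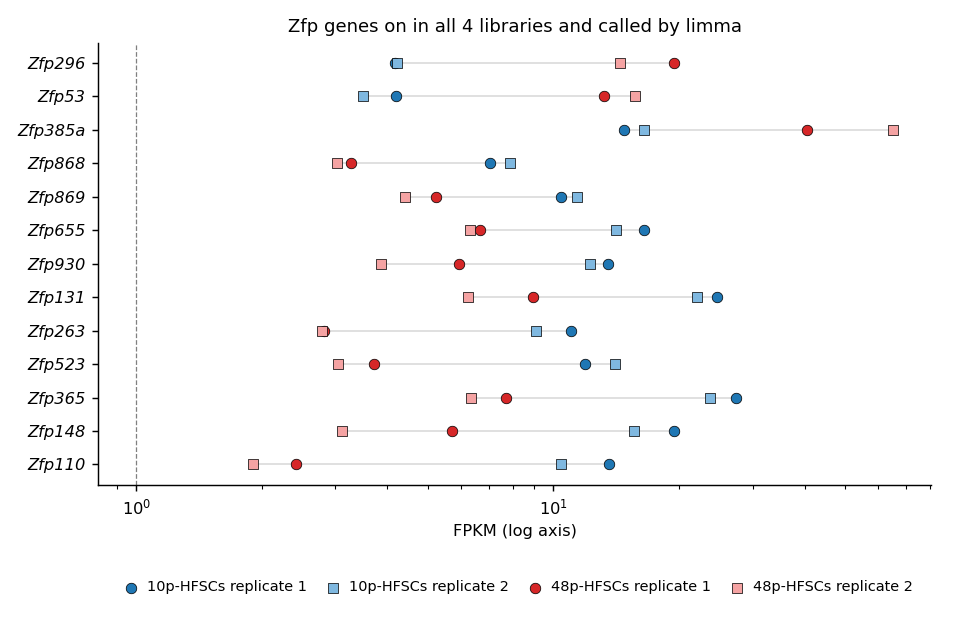
FPKM in each library, on a log axis, for the 13 members on in all 4 libraries that limma called, ordered by difference from Zfp296, Zfp53 and Zfp385a at the top to Zfp110 at the bottom, with 10p-HFSCs in blue, 48p-HFSCs in red, replicate 1 as circles and replicate 2 as squares. In each row the red points lie apart from the blue ones.

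Over all 252 members, 8 were called higher (3.17%, against 10.8% of all genes tested) and 33 lower (13.1%, against 9.15%). The choice of members fixes part of these counts, since 16 of the 33 were switched off members and 4 of the 8 switched on ones. Of the 222 members on in at least 1 library of each group, 4 were called higher (1.80%, against 6.70% of such genes) and 17 lower (7.66%, against 6.47%). Of the 68 members on in every library but 48p-HFSC replicate 2, 7 (10.3%) were called lower. The pattern itself puts replicate 2 under the limit. The share over all genes with this pattern was not computed, so nothing about Zfp genes is read from the 7. Among these 7, Zfp319 was at 6.09 and 6.77 at 10 passages and 1.68 and 0.107 at 48. Zfp12 was at 6.78 and 5.91 and then 2.1 and 0.526. These were named after their values were seen. The 33 became 106 without 48p-HFSC replicate 1, 21 without replicate 2, and 1 and 2 without 10p-HFSC replicates 1 and 2.

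Genes lying next to each other were compared next, since Zfp genes stand in clusters. Runs were set with gaps of at most 0.5 Mb and at least 5 members, after the values were seen, and carry no test. On chromosome 8, all 6 members of one run (chr8:69209038-69791178, GRCm38), all with KRAB, were called lower, 2 of them switched off members. These 2 and Zfp866 met the level rule only with the 10p-HFSC libraries, so their calls are a description. Zfp930, Zfp868 and Zfp869 were on in all 4 libraries. Zfp930 and Zfp868 lie at one side, Zfp964, Zfp869, Zfp963 and Zfp866 follow, and their differences ran from -1.87 to -1.03 with a median of -1.2. In 48p-HFSC replicate 1 alone the median was -1.01, so the median did not rest on replicate 2, but the call of Zfp930 was lost without that replicate. Zfp868 was at 7.06 and 7.86 for the 10p-HFSC replicates, then 3.26 and 3.03 for those of 48p-HFSCs. Zfp869 was at 10.4 and 11.4 and then 5.23 and 4.41. Zfp866 was at 6.18 and 4.84 and then 1.62 and 0.188, its replicates far apart, and met the level rule only with the 10p-HFSC libraries. Chromosome 8 as a whole was lower, with a median of -0.59 over its 569 genes that were not members, against -1.11 for its 16 members. Of those members 8 (50.0%) were called lower, 6 of them in the run, and of the other genes 107 (18.8%). The choice of genes fixes part of the members' count, since it holds members that met the level rule only with the 10p-HFSC libraries.

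On chromosome 7, the 10 members between 127233061 and 127885996 had a median of -1.19, and -0.68 in 48p-HFSC replicate 1 alone. Of these, 9 were below 0 and 4 were switched off (Zfp747, Zfp764, Zfp689 and Zfp629). Zfp553 (12 fingers) was at 16.4 and 16.0 in 10p-HFSCs and 9.48 and 1.37 at 48 passages. Zfp771 was at 12.3 and 16.7 and then 5.28 and 7.23. The exception was Zfp688, which lies between Zfp764 and Zfp689 and was at 5.23 and 10.1 and then 13.3 and 19.2 (1.03, limma adjusted p = 0.107). Since Zfp688 was not called, whether the genes of this run moved together is not read from it. The 16 other genes tested in the same stretch had a median of -0.22. Over the whole of chromosome 7, 59 members had a median of -0.70 and the 786 other genes one of 0.13, and in replicate 1 alone the members' median was -0.30.

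Of the other runs, the 17 KRAB members at chr17:21008903-23564238 had a median of -0.13, with 11 below 0, and held Zfp53 and Zfp946, both called higher, the second a switched on member. The 14 KRAB members at chr13:67069399-67792512 had a median of -0.76, and -0.30 in 48p-HFSC replicate 1 alone, with 13 below 0 and 4 switched off. The 12 members at chr7:29768552-30169750 had a median of -0.67. The 5 members at chr9:20345136-20605409 were all below 0, from -0.82 to -0.46 with a median of -0.58, and none was called. The 5 members at chr7:12478293-12985714 were also all below 0, from -2.04 to -0.27 with a median of -0.78, and Zfp110 was the 1 called.

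**Figure D5:**
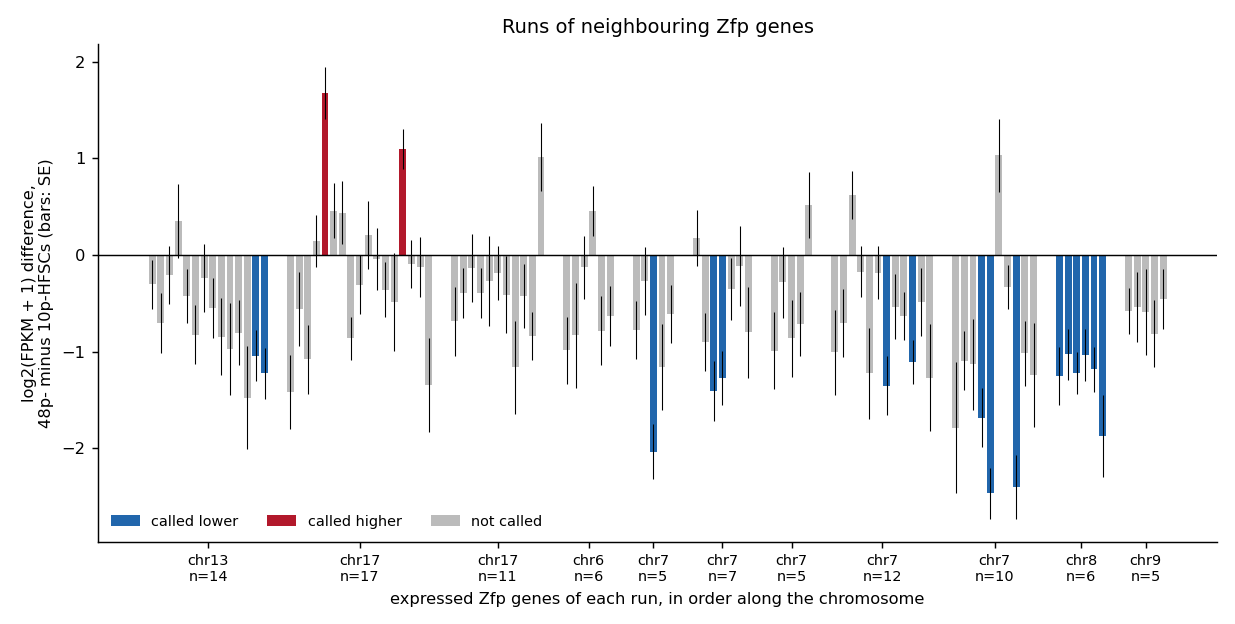
Difference of log2(FPKM + 1), 48p-HFSCs minus 10p-HFSCs, with its SE from limma, for the members of 11 runs of neighbouring Zfp genes, each in order along its chromosome, with called lower in blue, called higher in red and not called in grey. All 6 bars of the chr8 run are blue, and the run of 10 on chr7 has 1 bar above 0.

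Among members with an established role, most did not pass the test. The KRAB gene Zfp809, which silences murine leukaemia virus proviruses, was at 11.2 and 10.4 at 10 passages and 17.4 and 16.7 at 48 (0.62, limma adjusted p = 0.130). Zfp932, which represses endogenous retroviruses, was at 16.0 and 19.4 and then 11.9 and 8.61 (-0.74, limma adjusted p = 0.121), with 26.4% of its windows shared. Zfp445, which guards imprints together with Zfp57, was at 26.2 and 22.4 and then 13.0 and 4.90 (-1.48, limma adjusted p = 0.067). For each of these 3 the groups did not overlap, which was common. Among all genes on in all 4 libraries, 32.3% had groups apart with 48p-HFSCs lower and 30.0% with 48p-HFSCs higher. Zfp568, a repressor of a placental Igf2 transcript, was at 3.02 and 2.00 and then 2.02 and 0.900, with overlapping groups. Zfp57, Zfp42 (Rex1, a pluripotency marker), Zfp503, Zfp521 and Zfp423 were listed at 0 in all 4 libraries, and Zfp711 was at most 0.0474.

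Outside the KRAB class, Zfp36 (tristetraprolin), which drives decay of AU-rich mRNAs, was at 19.6 and 17.9 for the 10p-HFSC replicates, then 36.8 and 20.1 for those of 48p-HFSCs (0.52, limma adjusted p = 0.314). The corepressor Zfp703 was at 13.9 and 14.5 and then 9.72 and 1.48 (-1.56, limma adjusted p = 0.150), so its 48p-HFSC replicates were far apart. Zfp598, the ligase that marks collided ribosomes, was at 20.5 and 26.3 and then 15.8 and 20.5 (-0.35). Zfp622, a factor of ribosome assembly, was at 12.4 and 15.4 and then 18.1 and 26.2 (0.62). Neither was called. Zfp687, Zfp592 and Zfp532 encode partners in one complex, and their differences were -0.19, -0.74 and -1.28. Zfp532 alone of these was called lower, at 4.23 and 3.88 and then 1.70 and 0.593. It met the level rule only with the 10p-HFSC libraries, so this difference is given as a description. It was -0.90 without 48p-HFSC replicate 2. After the correction for length and GC content it was -0.98 and not called.

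The most abundant members were called in neither direction. Zfp207 (BuGZ), a spindle protein that binds Bub3, was at 103.6 and 79.7 in 10p-HFSCs and 52.0 and 60.8 at 48 passages (-0.68, limma adjusted p = 0.135). The ubiquitin ligase Zfp91 was at 47.4 and 49.8 and then 48.1 and 57.1 (0.11). Zfp706, whose protein has 76 residues, was at 29.6 and 38.1 and then 46.1 and 57.3 (0.60). Zfp511 was at 33.3 and 42.1 and then 23.7 and 52.6, with overlapping groups (-0.08). Zfp330 was at 49.7 and 40.6 and then 27.9 and 30.8 (-0.60).

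The genes that KRAB proteins act through were all on. All 18 partner genes listed, from Trim28 to the heterochromatin proteins and the HUSH complex, were on in every library. Trim28, the corepressor that KRAB binds, was at 90.6 and 80.9 at 10 passages and 71.5 and 92.4 at 48, with overlapping groups (-0.07). Setdb1 was at 17.0 and 13.7 and then 15.8 and 10.8 (-0.21). By limma none was called higher, against 6.68% of all genes on in all 4 libraries. Lower was called for 1 (5.56%), near the 6.04% of all such genes. An unadjusted p under 0.05 was found for 3 of the 18, against 37.4% of all genes tested, a wider set that also holds genes on in 1 group only. The one called was Chd3, a remodeller of the NuRD complex, at 33.9 and 26.6 and then 9.19 and 11 (-1.49, limma adjusted p = 0.016). Atf7ip, a partner of Setdb1, was at 11.7 and 6.63 and then 19.3 and 22.2 (1.14, limma adjusted p = 0.061). It was called higher after the correction for length and GC content (1.51, limma adjusted p = 0.017) and with the replicate number as a block (limma adjusted p = 0.00915). The median difference of the 18 was -0.11. Chd3 was called without 48p-HFSC replicate 1 (3 partner genes called lower) and without replicate 2 (2), and no partner gene was called lower without either 10p-HFSC library.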

How the data were processed

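RNA of 4 libraries was made into stranded mRNA libraries and read from a single end. The authors mapped reads to mm10 and deposited FPKM per gene as calculated by Cufflinks. The submitters' processing notes name TopHat2 2.1.1, Bowtie2 2.2.8, SAMtools 0.1.18 and Cuffdiff 2.2.1, and the study's methods give other versions of Bowtie2 and SAMtools. The gene annotation was not given in the sources used here. The counts behind the values are unknown, and relative depth came from genes with FPKM under 0.3.

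limma 3.58.1 (R 4.3.3) was fitted without covariates to log2(FPKM + 1) for 11018 genes with FPKM of at least 1 in at least 2 of 4 libraries, with a variance trend and Benjamini-Hochberg adjustment. Fold changes on this scale understate those of low genes. With 2 libraries per group an exact permutation test cannot go below a two-sided p of 0.333, so none was run. In data simulated for 48p-HFSCs against 10p-HFSCs over 11018 genes, 11.6%, 60.4% and 84.8% of genes changed by 1.5, 3 and 5 log2 units were called. Of all calls, 2.43% were false. Changes were placed only in genes with a mean log2(FPKM + 1) above 3, and most members were below that level. Errors were drawn as independent and normal, without the trends with length and GC content that the libraries share. These rates therefore do not describe most members.

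Positions and coding sequences came from GENCODE (GRCm38), which matched all 360 symbols. KRAB and SCAN domains were found with pyhmmer 0.12.3 at an E-value of at most 1e-05. BTB domains were not classed, so members listed with C2H2 fingers alone may carry one. Promoters came from RefSeq (GRCm38.p6), at the most upstream start of each gene, with 211 of 252 members matched.

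Named genes were the 8 largest called changes each way among members on in all 4 libraries, the 8 highest members switched on or off, the 5 most abundant, the nearest to the level limit, and lists of known roles and KRAB partners. Members and lists were chosen with earlier results of these data known. Alternatives were another pseudocount (0.1), other filters and scalings, no variance trend, a replicate block, leaving out each library, other limits for on and, added after seeing the data, a correction for transcript length and GC content.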

Additional observations from a re-analysis of the deposited data

How the results depend on the processing

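No called result changed sign under any alternative run. Of members called higher and lower (8 and 33), 5 were called higher with a filter on the mean, 16 lower with no filter, 4 and 19 under TPM rescaling, 13 and 66 with the replicate block, and 0 to 11 and 1 to 106 with a library left out. For members on in all 4 libraries (3 and 10), 6 were called lower with no filter, 0 and 3 under TPM rescaling, 8 and 28 with the block, 20 lower with the block and the length and GC correction, and 0 to 6 and 0 to 43 with a library left out. For KRAB partner genes (0 and 1), the block gave 1 and 2, the length and GC correction 1 higher, both together 1 and 2, the gene higher being Atf7ip each time, and a library left out 0 to 3 lower. Switched on members (4) numbered 10 at a limit of 0.5, 2 after rescaling to a common FPKM sum and 4 to 9 with a library left out, and switched off members (26) numbered 13 at 0.5 and 26 to 94 with a library left out. The median difference of members on in all 4 libraries relative to all such genes (-0.39) ran from -0.67 without 48p-HFSC replicate 1 to -0.06 without replicate 2, and that of KRAB members (-0.47) from -0.74 to -0.12. TPM rescaling moved the median of all genes from -0.03 to -0.56 and their calls from 1189 higher and 1008 lower to 623 and 812, and relative to that shift the median of members was -0.33. Of 13 members called that the naming rule gave (Zfp750 and Zfp532 among them), 2 kept their call under TPM rescaling, none without either 10p-HFSC library, 13 without 48p-HFSC replicate 1 and 10 without replicate 2. Differences of the 13 stayed at 0.664 to 1.49 times the reported size under TPM rescaling (Zfp148 at -2.34). They were 0.908 to 1.09 times that size without a 10p-HFSC library (Zfp296 at 1.77 and 1.78). Without 48p-HFSC replicate 2 they were 0.703 to 1.18 times it. Zfp750 and Zfp532 each met the level rule through 1 group only, so their calls are a description. Without a 10p-HFSC library the lone one is assumed to vary like the other group, and calls over all genes fell to 35 and 36 higher and 140 and 146 lower. Labels share replicate numbers only, and deviations of same-numbered libraries correlated across 11018 genes (r = 0.41), with only 2 pairs to judge by, so the block is not taken as a pairing. The causes were not tested.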
